A study of Homo sapiens with 9 samples.

Results

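The 9 genes described here supply the nucleotide sugars from which the Golgi builds sialylated and other glycans. They are GNE, NANS, NANP, CMAS, SLC35A1, SLC35A2, SLC35A3, UGDH and UGP2. They come from the sialic acid route, its transporters and the UDP-glucose branch, and their rows were taken by gene symbol. The genes were chosen with earlier results of these data known. Each of the 9 symbols had 1 row in the deposited array table, so all 9 were measured, out of 17687 genes with a symbol of their own.

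Gene expression was measured in AsPC-1 cells, a human line derived from a pancreatic adenocarcinoma. The sh1 cells carried the pBAsi-hU6 NEO plasmid with the first short hairpin RNA (shRNA) against SLP-2, and the sh2 cells carried the same plasmid with the second. The control cells carried the plasmid without a hairpin. All 3 groups were selected with Geneticin for 3 weeks and grown from 1 picked colony, and 3 arrays were made for each. A group is therefore 1 clone, hairpin and clone cannot be told apart, and the labels do not say whether the arrays of a clone came from separate cultures, so the p-values may reflect technical spread alone. The comparisons of sh1 and of sh2 with control share the same 3 control arrays. SLP-2 (stomatin-like protein 2) is the product of STOML2. The study's title ties it to the rate-limiting enzyme of hexosamine biosynthesis, whose end product, UDP-N-acetylglucosamine, is the substrate of GNE and the cargo of SLC35A3.

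Sialic acids are acidic sugars at the outer ends of glycans on the cell surface and on mucins, and their amount is often raised on carcinoma cells. They are made in the cytosol from UDP-N-acetylglucosamine by the epimerase and kinase GNE, the synthase NANS and the phosphatase NANP. CMAS, a nuclear enzyme, then joins the sugar to CMP, and CMP-sialic acid inhibits GNE by feedback. SLC35A1 carries CMP-sialic acid into the Golgi, where sialyltransferases use it, while SLC35A2 and SLC35A3 carry UDP-galactose and UDP-N-acetylglucosamine. UGP2 makes UDP-glucose, and UGDH oxidises it to UDP-glucuronic acid, a building block of hyaluronan and other glycosaminoglycans.

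The values are log2 signals as deposited, and a gene was called at an adjusted p under 0.05 (limma over all 21448 rows). STOML2 was measured at 8.36, 8.42 and 8.18 in sh1, at 7.85, 7.99 and 7.35 in sh2, and at 13.70, 13.66 and 13.65 in control. The targeted transcript was thus low in all 6 knockdown arrays. Signals of arrays of a group correlated at r = 0.994 to 0.996 across rows. The 8 epithelial and pancreatic duct markers all lay above 4.21, the lower quartile of row means, in every group. By limma 4 of them were called higher and 1 lower in sh1, and 3 higher and 2 lower in sh2. That is 62.5% called in each clone, against 18.8% of all rows in sh1 and 16.3% in sh2. The adhesion genes EPCAM and CDH1 separated the clones, with EPCAM at 13.88 in sh1, 9.68 in sh2 and 8.94 in control and CDH1 at 10.74, 8.19 and 8.71. The keratin genes KRT8 and KRT18 were higher in both clones (16.91 and 14.59 in sh1, 16.90 and 14.64 in sh2, 16.20 and 13.38 in control). The duct keratin gene KRT19 was lower in both, at 14.50 in sh1, 15.62 in sh2 and 16.19 in control. Of the markers of other cell types, 4 of 7 fibroblast, 3 of 5 leukocyte and 2 of 4 endothelial genes lay above that quartile in sh1. In sh2 these counts were 5, 3 and 2, and in control 5, 4 and 2. The fibroblast genes COL1A1 and COL1A2, which encode the chains of type I collagen, were called lower in both clones and the other 5 were not called. The share called was thus 28.6% in each clone, against the same 18.8% and 16.3% of all rows. COL1A1 averaged 6.65 in sh1, 6.36 in sh2 and 9.84 in control, and COL1A2 9.18, 9.20 and 10.36. The summed signal of the fibroblast genes ran from 9.49 to 10.03 over the sh1 arrays, from 9.53 to 9.84 in sh2 and from 11.16 to 11.39 in control, on the log2 scale. The pan-leukocyte gene PTPRC was also called lower in both clones, at 3.94 in sh1, 3.99 in sh2 and 4.64 in control. Both clone means of PTPRC were under the lower quartile of 4.21, so its signal was dim. The sh2 calls were lost for KRT19 without any 1 control array, sh2 array 2 or sh2 array 3 (limma, adjusted p up to 0.0855), and for PTPRC without array 2 or 3 of control or of sh2 (up to 0.0714). In another fit the median deviation of the 40 nearest expressed genes on the chromosome was subtracted. There the sh2 calls of KRT8 (0.32) and KRT19 (-0.38) were lost (limma, adjusted p = 0.0804 and 0.128). The part of these marker changes in the results on the supply genes was not tested. Of the leukocyte genes the macrophage marker CD68, a lysosomal protein, was the highest, at 11.92 in sh1, 12.81 in sh2 and 12.40 in control. No detection calls were used here. All 9 supply genes had means above that quartile.

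Of these genes, GNE and SLC35A3 were called in at least 1 comparison, and the promoters of these genes, as listed by RefSeq on GRCh38.p14, are shown with every CG dinucleotide in capitals. Each runs from 250 bases before to 50 bases after 1 annotated start, the first listed for the gene. Whether these starts are used in AsPC-1 cells was not tested. The GNE promoter lies at chr9:36276929-36277228 on the minus strand and the SLC35A3 promoter at chr1:99969746-99970045 on the plus strand.
GNE: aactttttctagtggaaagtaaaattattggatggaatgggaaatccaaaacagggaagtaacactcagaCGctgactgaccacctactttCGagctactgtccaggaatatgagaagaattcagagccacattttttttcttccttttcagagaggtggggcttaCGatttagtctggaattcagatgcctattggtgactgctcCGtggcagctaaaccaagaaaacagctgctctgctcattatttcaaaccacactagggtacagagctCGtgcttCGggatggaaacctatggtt
SLC35A3: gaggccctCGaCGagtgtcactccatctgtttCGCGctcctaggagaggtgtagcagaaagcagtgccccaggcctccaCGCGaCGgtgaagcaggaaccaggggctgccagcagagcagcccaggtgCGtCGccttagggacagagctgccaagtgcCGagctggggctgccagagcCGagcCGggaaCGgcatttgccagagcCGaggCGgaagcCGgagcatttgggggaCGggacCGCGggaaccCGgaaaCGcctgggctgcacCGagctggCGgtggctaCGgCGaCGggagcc

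The GNE window stands apart from those of the other 8 genes in base composition. Its G and C content is 43.3%, against 59.0% to 73.7% in the others and a median of 58.7% over 35116 RefSeq promoters. It holds 6 CG dinucleotides, against 15 to 36 in the others and 26 in SLC35A3. Low CG content is not rare, since 36.8% of all these promoters hold 6 or fewer. A GC box (GGGCGG, either strand), the letters that SP1 binds, was found in 5 of the 9 promoters and in 45% of all promoters, and neither GNE nor SLC35A3 holds it. A CCAAT box (CCAAT, either strand) was found in 3 of the 9, GNE among them, and in 34.6% of all. TATAAA was found in 1 of the 9 and in 11.5% of all promoters. The E-box CACGTG and the ATF4-type element TGATGNAA were found in 0 of the 9, against 7.26% and 3.62% of all promoters. Motif matches overlapping one another were each counted, and a match describes the letters of the window only.

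GNE, the enzyme that commits UDP-N-acetylglucosamine to sialic acid, was the member that separated the clones most clearly. Its log2 signal was 10.93, 10.80 and 10.95 in the sh1 arrays. In sh2 it was 11.97, 12.04 and 12.01. In control it was 11.58, 11.56 and 11.79. The 3 groups did not overlap, with sh1 lowest and sh2 highest.

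**Figure D1:**
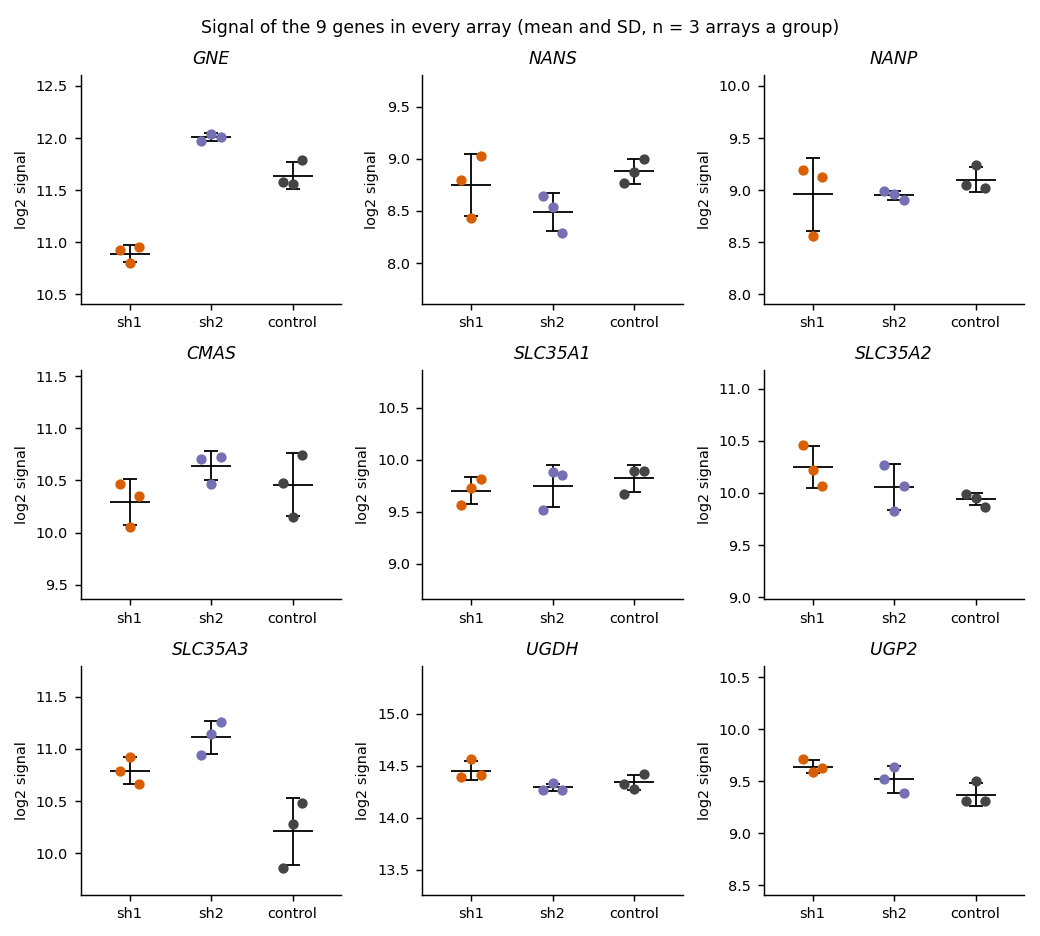
Log2 signal of the 9 genes in each array of sh1, sh2 and control; points are arrays, bars are the mean and SD of 3 arrays, and every panel spans the same range of log2 units. GNE sits near 10.89 in sh1, 12.01 in sh2 and 11.64 in control, and SLC35A3 is above control in all 6 knockdown arrays.

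GNE fell in sh1, by 0.75 ± 0.12 (SE) on the log2 scale relative to control (limma, adjusted p = 0.00103), which is 0.595 times the control signal. In sh2 the GNE difference from control was 0.36 ± 0.12 (SE) with an adjusted p of 0.0638 (limma), so it was not called, although all 3 sh2 arrays lay above all 3 control arrays. Its 95% interval ran from 0.10 to 0.63, and its unadjusted p was 0.0114 (limma). Between the clones, GNE was higher in sh2 than in sh1 by 1.11 ± 0.12 (SE, limma, adjusted p = 8.73e-05), a ratio of 2.16. This difference was larger in size than that of 97.2% of all rows in the same comparison. Leaving out any 1 array kept it between 1.07 and 1.14 (adjusted p = 0.000164 to 0.000731), and the fall in sh1 between -0.79 and -0.68 (adjusted p = 0.00177 to 0.00612). GNE in sh2 against control was called when dim rows were left out (0.36, adjusted p = 0.0412) and with an intensity trend and robust prior (0.36, adjusted p = 0.0238).

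GNE lies on chromosome 9 close to STOML2, which is the thirteenth expressed gene before it, so its neighbours were set beside it. In sh1 the 40 nearest expressed genes, from RPP25L to FAM27E3, had a median difference from control of -0.40, with 30 lower and 10 higher. Of these, 17 were called lower and 3 higher. In sh2 their median was -0.28, with 28 lower and 12 higher, and 14 were called lower and 3 higher. The 40 include the targeted gene STOML2 itself, called lower in both clones. Of all rows, 9% were called lower and 9.76% higher in sh1, and 7.98% lower and 8.33% higher in sh2. GNE thus went with its neighbours in sh1 and stood on the other side of 0 from most of them in sh2. CLTA, the clathrin light chain gene directly before GNE, was lower in both clones (-0.51 in sh1 and -0.76 in sh2, limma, adjusted p = 0.0218 and 0.00267). MELK, a kinase gene directly after GNE, differed by -0.03 in sh1 and -0.27 in sh2 (limma, adjusted p = 0.918 and 0.27).

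**Figure D2:**
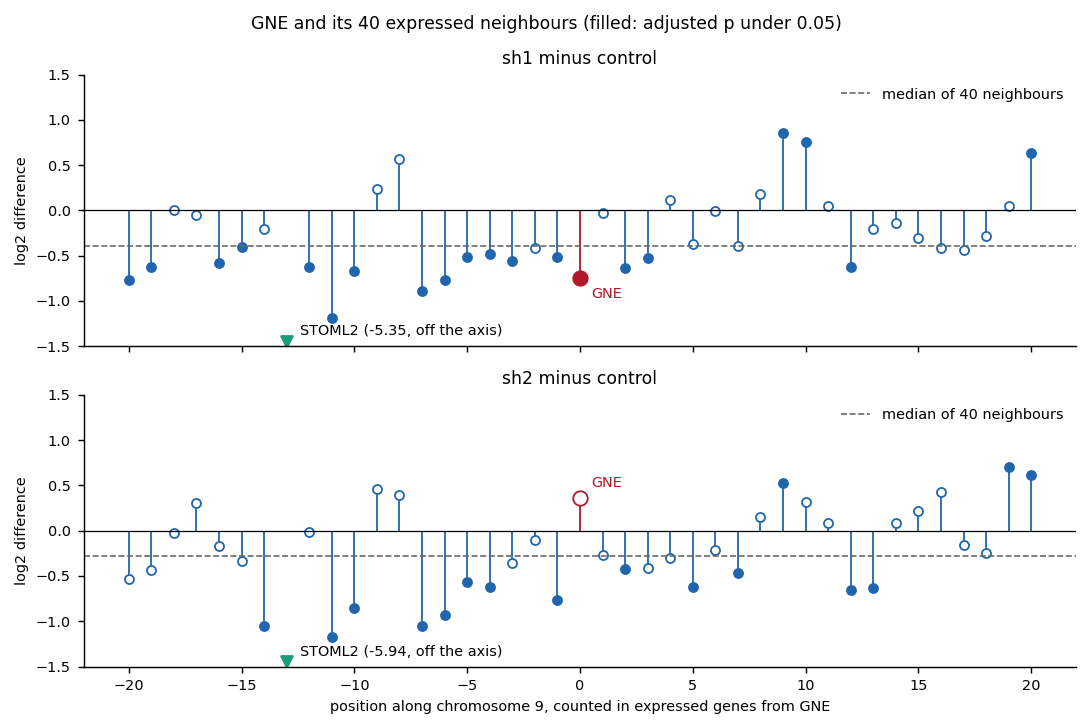
Log2 difference from control of GNE (red) and its 40 nearest expressed neighbours on chromosome 9, in sh1 (top) and sh2 (bottom), by order along the chromosome; filled points passed an adjusted p of 0.05, the dashed line is the neighbours' median, and STOML2 (-5.35 and -5.94) is off the axis. GNE is below 0 with most neighbours in sh1 (-0.75) and above 0 in sh2 (0.36).

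When the median deviation of the 40 neighbours was subtracted in each array, GNE remained lower in sh1, by -0.44 ± 0.12 (SE, limma, adjusted p = 0.0233). After the same subtraction it was higher in sh2 than in control, by 0.63 ± 0.12 (SE, limma, adjusted p = 0.00357). Both values are more than 1.5 times away from those without the subtraction. The difference between the clones was 1.07 ± 0.12 (SE, limma, adjusted p = 7.53e-05) after subtraction, close to the 1.11 before it, and the neighbours' own median difference between sh2 and sh1 was -0.01.

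The later steps of the sialic acid route were not called in either clone. NANS, the synthase that condenses the sugar with phosphoenolpyruvate, had signals of 8.80, 8.43 and 9.03 in sh1. In sh2 they were 8.64, 8.54 and 8.29, against 8.77, 8.87 and 9.0 in control. The sh2 arrays were all below the control arrays, while the sh1 arrays overlapped them. The NANS difference was -0.39 ± 0.17 (SE) in sh2 (limma, unadjusted p = 0.0388, adjusted p = 0.151) and -0.13 ± 0.17 (SE) in sh1 (limma, adjusted p = 0.685).

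NANP, the phosphatase that releases free sialic acid, read 9.19, 8.56 and 9.13 in sh1. It read 8.99, 8.96 and 8.91 in sh2 and 9.05, 9.24 and 9.02 in control. Its differences were -0.14 in sh1 and -0.15 in sh2 (limma, adjusted p = 0.637 and 0.631), with 95% intervals from -0.51 to 0.22 and from -0.52 to 0.22. The second sh1 array was low here, and it gave the lowest sh1 value of 5 of the 9 genes (GNE, NANS, NANP, CMAS and UGP2). Without it, NANP was 0.06 and NANS 0.03 above control in sh1 (limma, adjusted p = 0.842 and 0.922), and neither was called.

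CMAS, which makes CMP-sialic acid, had signals of 10.47, 10.05 and 10.35 in sh1. They were 10.71, 10.47 and 10.73 in sh2 and 10.48, 10.15 and 10.74 in control. All 3 groups overlapped. The CMAS difference was -0.17 ± 0.17 (SE) in sh1 and 0.18 ± 0.17 (SE) in sh2 (limma, adjusted p = 0.589 and 0.567), and 0.35 between sh2 and sh1 (adjusted p = 0.263, 95% interval -0.03 to 0.73). CMAS lies on chromosome 12, where 30 of its 40 expressed neighbours were higher in sh2 than in control (median 0.22). Of the 40, 14 were called higher and 2 lower, against 8.33% and 7.98% of all rows. With these neighbours subtracted the sh2 difference of CMAS was 0.02 (limma, adjusted p = 0.959).

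Among the Golgi transporters, SLC35A3, the carrier of UDP-N-acetylglucosamine, rose in both clones. Its signals were 10.79, 10.92 and 10.66 in sh1. They were 10.94, 11.14 and 11.26 in sh2, against 9.86, 10.28 and 10.48 in control. Every knockdown array was above every control array, and the lowest sh2 array (10.94) was just above the highest sh1 array (10.92). By limma, SLC35A3 was 0.58 ± 0.17 (SE) above control in sh1 with an adjusted p of 0.032. In sh2 it was 0.91 ± 0.17 (SE) above control, with an adjusted p of 0.00327 (limma). These are 1.5 and 1.87 times the control signal. The step from sh1 to sh2 was 0.32 ± 0.17 (SE) and was not called (limma, adjusted p = 0.287, 95% interval -0.05 to 0.69).

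The control arrays of SLC35A3 spread more (SD 0.32, n = 3) than its sh1 (SD 0.13) or sh2 (SD 0.16) arrays, with control array 1 the lowest. The sh1 call was lost without control array 1 (0.41, limma, adjusted p = 0.126), control array 2 (0.62, 0.0624), sh1 array 1 (0.58, 0.0779) or sh1 array 2 (0.52, 0.101). The sh2 call held without any single array, at 0.73 to 1.04 (limma, adjusted p between 0.00306 and 0.0166). The 40 expressed neighbours of SLC35A3 on chromosome 1 had a median difference of 0.13 in both clones. With these subtracted, SLC35A3 was 0.50 above control in sh1 and 0.79 in sh2 (limma, adjusted p = 0.0495 and 0.00564).

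SLC35A3 was the member called in both clones, and the genes most like it over the 9 arrays were sought among 17686 others, by Euclidean distance of the deviations from the control mean. RNF216, which encodes a ubiquitin ligase, was nearest (distance 0.41 log2 units, r = 0.94), with differences of 0.57 in sh1 and 0.89 in sh2. ZFAND1, a zinc finger protein gene, followed (distance 0.44, r = 0.95), with 0.44 and 0.87. The 9 points of each r share the 3 groups.

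SLC35A1, the CMP-sialic acid transporter, did not separate the groups. Its signals were 9.56, 9.73 and 9.81 in sh1, 9.52, 9.88 and 9.85 in sh2, and 9.67, 9.89 and 9.89 in control. The difference was -0.12 in sh1 and -0.07 in sh2 (limma, adjusted p = 0.654 and 0.825), with 95% intervals from -0.43 to 0.20 and from -0.38 to 0.25. It lies on chromosome 6, where 28 of 40 expressed neighbours were lower in sh1 (median -0.15) and 27 in sh2 (median -0.18). With them subtracted its differences were 0.06 and 0.12 (limma, adjusted p = 0.803 and 0.577).

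SLC35A2, the UDP-galactose transporter encoded on the X chromosome, had signals of 10.46, 10.22 and 10.07 in sh1. They were 10.27, 9.83 and 10.07 in sh2 and 9.99, 9.95 and 9.87 in control. The sh1 arrays lay above control and the sh2 arrays overlapped it. The SLC35A2 difference was 0.31 ± 0.15 (SE) in sh1 and 0.12 ± 0.15 (SE) in sh2 (limma, adjusted p = 0.189 and 0.674), so neither was called. Of the 3 related transporters SLC35A1, SLC35A2 and SLC35A3, SLC35A3 was thus the one called against control, and the differences between transporters in their response were not tested.

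In the UDP-glucose branch, UGP2, which makes UDP-glucose, read 9.71, 9.59 and 9.63 in sh1. It read 9.52, 9.64 and 9.39 in sh2 and 9.31, 9.50 and 9.31 in control. The sh1 arrays were all above the control arrays. The UGP2 difference was 0.27 ± 0.12 (SE) in sh1 (limma, unadjusted p = 0.0515, adjusted p = 0.171) and 0.14 ± 0.12 (SE) in sh2 (limma, adjusted p = 0.517). Its 40 neighbours on chromosome 2 had medians of 0.12 in sh1 and 0.17 in sh2, and subtracting them left 0.10 and 0.00 (limma, adjusted p = 0.672 and 0.99).

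UGDH, which makes UDP-glucuronic acid, was the steadiest gene of the group within sh2 (SD 0.03, n = 3). Its signals were 14.39, 14.56 and 14.41 in sh1, 14.27, 14.33 and 14.27 in sh2, and 14.32, 14.28 and 14.42 in control. The sh2 arrays were all below the sh1 arrays, and both overlapped control. The UGDH difference from control was 0.11 in sh1 and -0.05 in sh2 (limma, adjusted p = 0.582 and 0.841), with 95% intervals from -0.14 to 0.37 and from -0.30 to 0.20. Between sh2 and sh1 it was -0.16 (limma, adjusted p = 0.46).

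**Figure D3:**
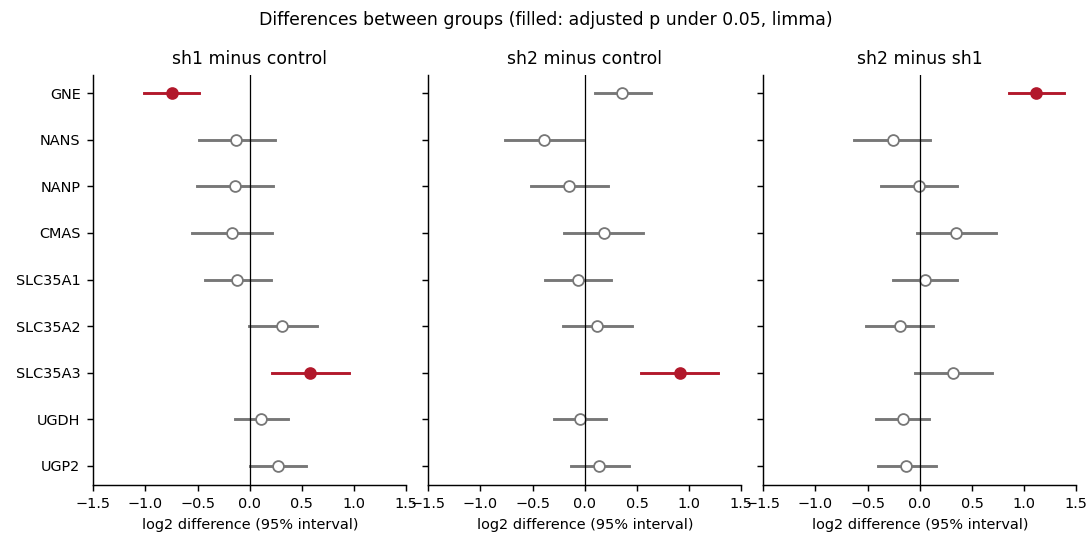
Log2 difference of each of the 9 genes in sh1 against control, sh2 against control and sh2 against sh1; points are the estimates, lines the 95% intervals of the model, and filled red points passed an adjusted p of 0.05 over all rows. GNE is filled at -0.75 and at 1.11, SLC35A3 at 0.58 and 0.91, and the other 7 genes have no filled point.

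Counted together, 2 of the 9 genes were called in sh1 against control (22.2%), against 18.8% of all rows. Of these, 1 was higher and 1 lower, while 9.76% of all rows were called higher and 9% lower. In sh2 against control 1 of 9 was called (11.1%), against 16.3% of all rows. That gene was higher, as were 8.33% of all rows, and 3 of 9 had an unadjusted p under 0.05 (27.8% of all rows). In sh2 against sh1 it was 1 of 9 (11.1%), against 11.3% of all rows, and it was higher, as were 5.73% of all rows. An unadjusted p under 0.05 was reached by 2 of 9 genes in sh1 against control (29.8% of all rows) and by 1 of 9 in sh2 against sh1 (23.4%). The shares called at the adjusted threshold are near those of the whole table. The arrays did not overlap for 4 of 9 genes in sh1 against control (34.5% of all rows), 4 of 9 in sh2 against control (32.5%) and 3 of 9 in sh2 against sh1 (27.1%). SLC35A3 was called in the same direction in both clones, as were 8.93% of all rows. The median difference of the 9 genes was -0.12 in sh1 and 0.12 in sh2, against 0.02 over all rows in each.

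The genes around the supply route were counted on lists, from the step that feeds it to the enzymes that spend its products. These lists too were chosen with earlier results of these data known. Of 9 measured genes of the hexosamine route and its salvage, 2 were higher and 2 lower in sh1, and 1 was higher and 2 lower in sh2 (medians -0.05 and -0.13). The share called was 44.4% in sh1, against 18.8% of all rows, and 33.3% in sh2, against 16.3%. GFPT1, which encodes an enzyme of the rate-limiting step, and NAGK, the N-acetylglucosamine kinase, stood on opposite sides in both clones, with GFPT1 at 0.84 in sh1 and 1.25 in sh2 and NAGK at -0.75 and -0.72 (limma, adjusted p = 0.00395, 0.000329, 0.0031 and 0.00462). GNPDA1, a deaminase that drains the route, was at -1.32 in sh1 and -0.95 in sh2 (limma, adjusted p = 0.000159 and 0.00192). After its chromosome 5 neighbours were subtracted it was at -0.93 in sh1 and at -0.34 in sh2, where the call was lost (limma, adjusted p = 0.00122 and 0.175). GNPNAT1, the acetyltransferase that follows GFPT1 in the route, was at 0.55 in sh1 (limma, adjusted p = 0.015), a call lost without control array 1, control array 2 or sh1 array 2 (up to 0.0587), and at 0.21 in sh2 (limma, adjusted p = 0.376).

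Against control, 2 of 8 genes of sialic acid release, recycling, acetylation and breakdown were called lower in sh1 and 3 of 8 in sh2. None was called higher in either, and the medians were -0.16 and -0.33. Lower calls made up 9% of all rows in sh1 and 7.98% in sh2, and higher calls 9.76% and 8.33%. Between the clones SIAE was called higher in sh2, and SLC17A5 and CASD1 lower (37.5% of the list, against 11.3% of all rows). SLC17A5, which exports sialic acid from lysosomes, averaged 9.14 ± 0.11 in sh1, 7.92 ± 0.47 in sh2 and 9.07 ± 0.14 in control (SD, n = 3 each). It fell by 1.15 in sh2 relative to control (limma, adjusted p = 0.00227), and its difference in sh1 was 0.06 (limma, adjusted p = 0.881). The clones differed by -1.21 (limma, adjusted p = 0.00216). CASD1, an acetyltransferase that modifies sialic acid, was at -1.21 in sh2 (limma, adjusted p = 8.11e-05) and at -0.50 in sh1 (limma, adjusted p = 0.0211). With its chromosome 7 neighbours subtracted the sh2 value of CASD1 was -0.72 (limma, adjusted p = 0.00343). The sh1 call of CASD1 was lost with the same subtraction (-0.14, limma, adjusted p = 0.525) and without control array 1, control array 3 or sh1 array 3 (adjusted p up to 0.084). CTSA, which protects lysosomal neuraminidase, was at -0.43 in sh1 (limma, adjusted p = 0.0437), a call lost without any 1 array other than control array 2. It was at -0.53 in sh2 (limma, adjusted p = 0.0176), a call that did not pass with either sh2 array 1 or 3, or control array 1 or 3, left out (adjusted p up to 0.0737). The sh1 count of the list was thus 0 to 2 over these fits, and the sh2 count 2 to 3.

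Of 6 genes that interconvert UDP-hexoses, PGM1 alone was called. PGM1, the phosphoglucomutase that makes the substrate of UGP2, was at -0.64 in sh1 (limma, adjusted p = 0.0136, and 0.053 without control array 1) and at 0.18 in sh2 (limma, adjusted p = 0.531). It was higher in sh2 than in sh1 by 0.82 (limma, adjusted p = 0.00531). In sh2 against control 0 of the 6 were called by limma, while 3 had an unadjusted p under 0.05, against 27.8% of all rows. Of 8 genes of GDP-mannose and GDP-fucose synthesis, 1 was lower in sh1 (GMDS, -0.61, limma, adjusted p = 0.0245, lost with its neighbours subtracted at 0.0621, without control array 3 and without sh1 array 2 at up to 0.0959). In sh2 0 were called by limma and 0 had an unadjusted p under 0.05. Of 7 measured genes of CTP and UTP supply, 1 was higher in sh1, and 1 was higher and 1 lower in sh2. CTPS1, a CTP synthase, was at 0.42 in sh1 and 0.44 in sh2 (limma, adjusted p = 0.0302 and 0.0272), and both calls were lost without control array 1 or control array 2, and when either of 2 arrays of its own clone was left out (arrays 1 and 3 in sh1, arrays 1 and 2 in sh2; adjusted p up to 0.101 and 0.0945). They were also lost with its neighbours subtracted (limma, adjusted p = 0.075 and 0.0555). UMPS, which makes UMP, was at -0.44 in sh2 (limma, adjusted p = 0.0438), a call lost with its neighbours subtracted (-0.35, adjusted p = 0.117) and without any 1 array other than sh1 array 2 or sh2 array 1 (adjusted p up to 0.142). In sh1 UMPS was at 0.09 (limma, adjusted p = 0.738).

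Among 21 other SLC35 transporter genes, 1 was higher and 4 lower in sh1 (23.8% called, against 18.8% of all rows). In sh2 2 were higher and 4 lower (28.6%, against 16.3%). The medians were 0.01 in sh1 and -0.13 in sh2. The count was 3 in sh1 without sh1 array 1 or sh1 array 3, and 3 in sh2 when sh2 array 3 or control array 1 or 2 was left out. SLC35A4, which lies on chromosome 5, was at -1.13 in sh1 and -1.28 in sh2 (limma, adjusted p = 0.00124 and 0.000633). With its neighbours subtracted it was at -0.74 and -0.62 (limma, adjusted p = 0.0177 and 0.0468). SLC35B1 was at -0.65 in sh1 and -0.62 in sh2 (limma, adjusted p = 0.0101 and 0.0153), and both calls were lost with its chromosome 17 neighbours subtracted (-0.21 and -0.24, limma, adjusted p = 0.377 and 0.342). Its sh2 call was also lost without sh2 array 3, control array 1 or control array 2 (adjusted p up to 0.0612). SLC35E1 was at -0.74 in sh2 (limma, adjusted p = 0.00214) and at -0.46 in sh1 (limma, adjusted p = 0.0276). The sh1 call of SLC35E1 was lost with its neighbours subtracted (-0.32, limma, adjusted p = 0.109) and without any of the sh1 arrays, control array 1 or control array 3 (adjusted p up to 0.116). SLC35D2, like SLC35A3 a transporter known to carry UDP-N-acetylglucosamine, was at 0.31 in sh1 (limma, adjusted p = 0.186) and rose by 0.96 in sh2 (limma, adjusted p = 0.000922).

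Sialyltransferases, the users of CMP-sialic acid, had 0 of 19 higher and 6 lower in sh1 (31.6% called, against 18.8% of all rows). In sh2 2 were higher and 4 lower (31.6%, against 16.3%). The medians were 0.01 in sh1 and -0.07 in sh2. Of the 19 genes, 12 had means over all arrays above the lower quartile of row means. Over the alternative fits and thresholds the count called ran from 5 to 9 in sh1 and from 5 to 7 in sh2. Between the clones 3 were called, all higher in sh2 (15.8%, against 11.3%, list maximum 3.05). These were ST3GAL1, ST6GAL1 and ST8SIA4. Against control, ST6GAL1 was called lower in sh1, ST3GAL1 higher in sh2, and ST8SIA4 lower in sh1 and higher in sh2. ST8SIA1, which makes the ganglioside GD3, averaged 3.42 in sh1, 3.34 in sh2 and 5.58 in control, and both knockdown means were under the lower quartile (limma, adjusted p = 6.04e-06 and 4.86e-06). ST3GAL5, which makes the ganglioside GM3, was at -1.53 in sh1 and -1.66 in sh2 (limma, adjusted p = 0.000136 and 9.18e-05). ST6GALNAC2, which acts on O-glycans, was at -1.20 and -1.32 (limma, adjusted p = 0.000453 and 0.000267). ST3GAL2, which sialylates galactose on O-glycans and glycolipids, was at -0.96 and -1.12 (limma, adjusted p = 0.00533 and 0.0024).

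Enzymes that build glycosaminoglycan chains, for which UGDH makes UDP-glucuronic acid, had 2 of 15 higher and 2 lower in sh1 (26.7% called, against 18.8% of all rows). In sh2 2 were higher and 1 lower (20%, against 16.3%). The medians were -0.22 in sh1 and 0.06 in sh2. HAS2, a hyaluronan synthase, averaged 8.57 ± 0.18 in sh1, 10.04 ± 0.07 in sh2 and 7.80 ± 0.10 in control (SD, n = 3 each). It rose by 0.77 in sh1 and 2.24 in sh2 (limma, adjusted p = 0.00163 and 5.24e-07), and was higher in sh2 than in sh1 by 1.47 (adjusted p = 2.15e-05). CHSY1, a chondroitin synthase, was at 1.17 in sh1 and 1.06 in sh2 (limma, adjusted p = 3.29e-05 and 9.41e-05). With its chromosome 15 neighbours subtracted these were -0.05 and 0.30 and the calls were lost (limma, adjusted p = 0.841 and 0.128). EXT1, a heparan sulfate polymerase, was lower in both clones, at -1.32 in sh1 and -0.41 in sh2 (limma, adjusted p = 1.78e-05 and 0.0433). The sh2 call of EXT1 was lost without any 1 array other than sh1 array 2 or sh1 array 3 (adjusted p up to 0.118). CSGALNACT1, which starts chondroitin chains, averaged 5.12 ± 0.35 in sh1, 7.51 ± 0.35 in sh2 and 7.28 ± 0.19 in control (SD, n = 3 each). It fell by 2.16 in sh1 (limma, adjusted p = 2.62e-05). In sh2 CSGALNACT1 was 0.23 above control and not called (limma, adjusted p = 0.547). It was higher in sh2 than in sh1 by 2.39 (limma, adjusted p = 1.88e-05). Of 8 genes of glycogen synthesis and glucosylation, 1 was higher and 1 lower in sh1 (25% called, against 18.8% of all rows). In sh2 1 was higher (12.5%, against 16.3%). GYS1, the glycogen synthase that uses UDP-glucose, was at 1.00 in sh2 (limma, adjusted p = 0.00109) and at 0.55 in sh1 (limma, adjusted p = 0.0302). The sh1 call of GYS1 was lost without control array 2, control array 3 or any of the sh1 arrays (adjusted p up to 0.113). GBE1, the glycogen branching enzyme gene, was at -0.42 in sh1 (limma, adjusted p = 0.0402) and at -0.34 in sh2 (limma, adjusted p = 0.0978). Its sh1 call was lost with its neighbours subtracted (-0.32, limma, adjusted p = 0.0874) and without any 1 control array, any 1 sh1 array or sh2 array 2 (adjusted p up to 0.143). The sh1 count of the glycogen list was thus 0 to 2 with single arrays left out. The sh2 count was 1 to 2, with 2 without sh1 array 3 or sh2 array 1.

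**Figure D4:**
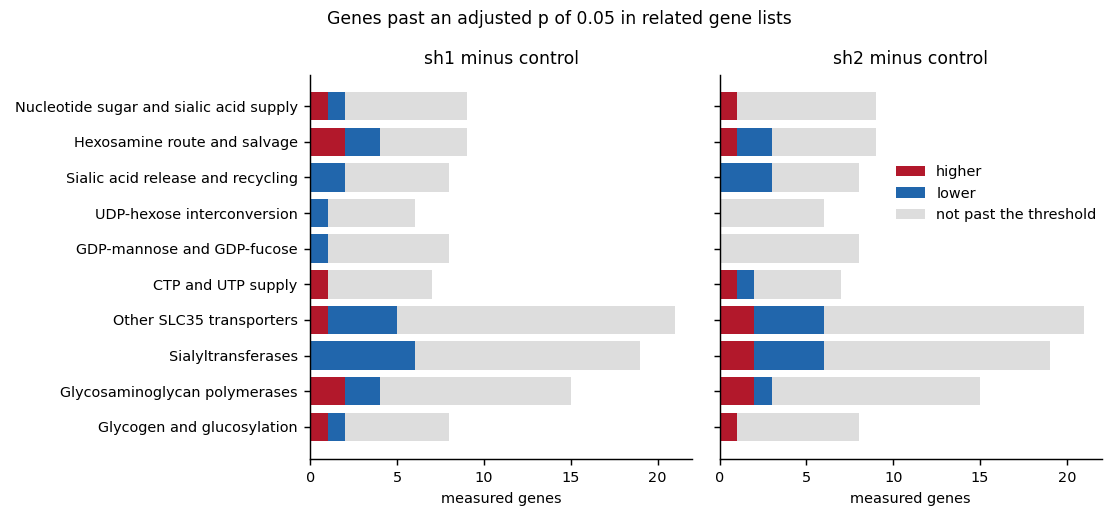
Number of measured genes called higher (red), called lower (blue) or not called (grey) at an adjusted p of 0.05, in sh1 and in sh2 against control, for the 9 supply genes and 9 related gene lists. Genes of sialic acid release and recycling had lower calls only against control, 2 of 8 in sh1 and 3 of 8 in sh2. Of all rows, 9% were called lower in sh1 and 7.98% in sh2.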

How the data were processed

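Total RNA of 9 AsPC-1 samples was isolated (Nucleospin RNA kit), amplified from 100 ng and biotin-labelled (WT Plus kit) for 1-colour arrays, per the labels' protocols. The deposited table holds log2 signals, read as such from their range (2.03 to 18.57) and near-equal array medians (6.57 to 6.65). No header states the scale. The authors summarised and normalized the arrays with Transcriptome Analysis Console, per the submitters' processing notes, which name no version or setting. The number of arrays limits the precision.

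The values were used without further scaling. Gene symbols came from the platform table, and 17709 of 21448 rows carried 1 symbol. Where a gene had several rows, the brightest row over all arrays was taken. Groups were compared with limma 3.58.1 in R 4.3.3, in 1 model over all 9 arrays, and p-values were adjusted by Benjamini-Hochberg over all rows. Expressed neighbours were the 20 genes on each side in RefSeq order (GRCh38.p14) with a mean above the median row. The fit was tested on simulated data. Array numbers in the labels were not treated as pairs, since deviations of same-numbered arrays correlated at -0.0358 to 0.18, with 2 of 9 pairs over 0.1.

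The 9 genes, the related lists and the tests were chosen with earlier results of these data known. Named are all 9 genes, STOML2 and, from each list, up to 4 called genes, first those called in both clones in 1 direction, ranked by the smaller change, then the others by their called change (all called genes of the hexosamine list). For a member called in both clones the 2 nearest genes are named. CLTA, MELK, CDH1, SIAE, ST3GAL1, ST6GAL1 and ST8SIA4 were named after their values were seen.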

Additional observations from a re-analysis of the deposited data

Results flagged for a closer look

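GNE drew attention because its differences from control ran in opposite directions in the 2 clones, and the test of the difference itself passed. It was 1.11 higher on the log2 scale in sh2 than in sh1 (limma, adjusted p = 8.73e-05), with all 3 sh2 arrays above and all 3 sh1 arrays below the control arrays. The difference between sh2 and control did not pass by itself (0.36, limma, adjusted p = 0.0638). Dixon's test for an outlying sample was not run, since each group has 3 arrays.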

How the results depend on the processing

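For the 9 genes in 3 comparisons, 18 alternatives each gave 486 values, of which 467 kept their direction and their side of the threshold, 5 lost a call, 3 gained one and 11 changed sign. The GNE calls in sh1 against control (-0.79 to -0.44) and in sh2 against sh1 (1.07 to 1.15) and the SLC35A3 call in sh2 (0.73 to 1.04) held under all 18. The number of genes called in sh1 was 1 at an adjusted p under 0.01, where SLC35A3 was lost, and 1 to 2 when single arrays were left out. In sh2 it was 2 without dim rows, 2 with the trend and robust prior and 2 with neighbour correction, each with GNE added, and the cause was not tested. The stricter threshold left 2425 rows called in sh1, against 4025, 1921 in sh2, against 3498, and 1331 between the clones, against 2423. All 11 changes of sign were of small values that were not called. With neighbour correction SLC35A1 was 0.06 in sh1 and 0.12 in sh2. Over the fits without single arrays, NANS was -0.27 to 0.03 and NANP -0.26 to 0.06 in sh1 (positive without sh1 array 2), and SLC35A1 was -0.14 to 0.05 in sh2 (positive without sh2 array 1). Between the clones NANP was -0.21 to 0.11 and SLC35A1 -0.02 to 0.16 in those fits. With the array number as a replicate block, 3996 rows were called in sh1, 3432 in sh2 and 2364 between the clones, and 2, 1 and 1 of the 9 genes, so no call of a member changed. Of 486 recomputed counts for the related lists, 86 moved by over 1.5 times, 48 of them when an array was left out.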
